A study of Mus musculus with 10 samples.

Results

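The genes described here encode the subunits of the proteasome and the proteins that activate, regulate or assemble it. They were chosen by name, as the genes whose symbol begins with Psma, Psmb, Psmc, Psmd, Psme, Psmf or Psmg followed by a number. Of the 18539 genes that a probe of the array could be matched to, 50 met this rule, through 71 of the 41174 probes. The name table holds 51 protein-coding genes that meet the rule, and Psme2b, a relative of the activator gene Psme2, was the 1 gene matched by no probe. The rule also takes in Psmc3ip and Psme3ip1, which are not proteasome subunits. Psmc3ip encodes a recombination factor that was named for binding Psmc3, and Psme3ip1 a protein that binds Psme3.

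The proteasome degrades proteins that carry ubiquitin. Its core particle, the 20S proteasome, is a stack of rings of alpha subunits (Psma) and beta subunits (Psmb), and the catalytic beta subunits Psmb5, Psmb6 and Psmb7 cut the substrate. A regulatory particle, the 19S, caps the core with a ring of ATPases (Psmc) that unfold the substrate and with non-ATPase subunits (Psmd) that bind and strip ubiquitin. In cells exposed to interferon and in many blood cells, Psmb8, Psmb9 and Psmb10 take the places of Psmb5, Psmb6 and Psmb7 to form the immunoproteasome, and the 11S activator of Psme1 and Psme2 is induced with them. These forms are known for supplying peptides to MHC class I molecules, of which resting neurons hold little.

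The study hybridized 10 arrays, each with left hemibrain total RNA from a male C57BL/6J mouse, labelled with Cy-5 and listed under an animal number of its own, and with a second RNA labelled with Cy-3. The mice were housed singly from 3 weeks of age, stayed on a standard lab diet (SD) or an n-3 PUFA enriched diet (FD) for 20 weeks and were 5 months old at collection. The labels enter FD for the Cy-5 sample and a pool of SD hemibrains for the Cy-3 sample of each array. They also describe the same 10 samples as controls. The methods name mice of both diets in Cy-5, set against a purchased reference RNA, and count fewer mice than the 10 arrays. The diet of an array is therefore unknown here, FD and SD were not compared, and the arrays were not treated as replicates of a diet.

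Values are log2 Cy-5/Cy-3, the log2 ratio of the processed signals of the hemibrain and of the Cy-3 RNA on the same spot. A value of 0 stands for equal signals after dye normalization and 1 for a 2-fold higher hemibrain signal. Hemibrain RNA carried Cy-5 on every array, with no swap of the dyes. An effect of the dye on a probe and a difference between the RNAs therefore cannot be told apart, which matters most for small ratios. They are given as the median, the lowest and the highest over the arrays, and a gene is represented by its brightest probe. The arrays lay on 4 slides, of which 2 held 4 arrays each. The share of all probes with a Cy-5 signal well above background was between 68.2% and 76.9% on 9 arrays and 49.8% on array C10-434, whose Cy-5 signal was the weakest. Marker genes of brain cells were far higher in Cy-5. The median of 8 neuron genes lay between 5.38 and 6.36 over the arrays, that of 7 astrocyte genes between 6.40 and 6.76 and that of 6 oligodendrocyte genes between 4.31 and 5.06, whereas that of 8 proliferation genes lay between -6.22 and -4.94. These ratios go with the hemibrain label of Cy-5 and against the entry of a hemibrain pool for Cy-3, which is called the reference below. In such bulk RNA, fewer cells of a type and less RNA per cell cannot be told apart.

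The promoters of the interferon-type genes are shown because they include both genes with the lowest ratios, Psmb8 and Psmb9, and a gene at the level of the reference, Psmb10. Each window is 300 bases of RefSeq sequence of assembly GRCm38.p6, from 250 bases before to 50 bases after the annotated start, read 5′ to 3′ on the strand of the gene. Capitals mark the core of the interferon-stimulated response element (ISRE), searched as GAAA, any 2 bases and GAAA, and the STAT binding element known as GAS, searched as TTCNNNGAA, each on both strands. The windows are chr17:34197945-34198244 on the + strand for Psmb8, chr17:34187281-34187580 on the - strand for Psmb9, chr8:105938343-105938642 on the - strand for Psmb10, chr14:55578244-55578543 on the + strand for Psme1 and chr14:55591052-55591351 on the - strand for Psme2, for which 1 of 2 overlapping windows is printed.
Psmb8: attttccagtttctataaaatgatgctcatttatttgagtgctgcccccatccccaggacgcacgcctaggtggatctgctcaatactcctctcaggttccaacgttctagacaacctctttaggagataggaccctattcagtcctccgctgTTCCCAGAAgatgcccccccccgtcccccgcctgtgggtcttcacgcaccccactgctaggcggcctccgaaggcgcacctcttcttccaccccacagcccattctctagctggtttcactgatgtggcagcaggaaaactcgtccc
Psmb9: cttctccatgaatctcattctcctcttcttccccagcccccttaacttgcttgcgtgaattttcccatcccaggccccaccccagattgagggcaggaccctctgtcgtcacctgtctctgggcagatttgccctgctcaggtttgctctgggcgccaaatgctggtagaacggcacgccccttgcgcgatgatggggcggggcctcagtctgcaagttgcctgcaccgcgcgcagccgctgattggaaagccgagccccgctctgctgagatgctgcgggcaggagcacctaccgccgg
Psmb10: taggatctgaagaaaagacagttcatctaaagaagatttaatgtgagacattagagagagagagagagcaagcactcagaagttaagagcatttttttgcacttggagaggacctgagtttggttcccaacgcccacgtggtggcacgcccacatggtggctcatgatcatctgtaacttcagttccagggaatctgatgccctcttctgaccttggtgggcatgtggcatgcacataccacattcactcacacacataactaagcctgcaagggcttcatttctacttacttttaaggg
Psme1: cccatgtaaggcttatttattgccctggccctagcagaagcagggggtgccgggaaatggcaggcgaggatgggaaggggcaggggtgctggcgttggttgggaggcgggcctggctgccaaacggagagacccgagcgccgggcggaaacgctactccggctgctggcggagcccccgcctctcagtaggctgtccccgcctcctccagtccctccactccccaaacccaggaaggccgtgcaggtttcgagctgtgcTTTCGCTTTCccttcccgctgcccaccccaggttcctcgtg
Psme2: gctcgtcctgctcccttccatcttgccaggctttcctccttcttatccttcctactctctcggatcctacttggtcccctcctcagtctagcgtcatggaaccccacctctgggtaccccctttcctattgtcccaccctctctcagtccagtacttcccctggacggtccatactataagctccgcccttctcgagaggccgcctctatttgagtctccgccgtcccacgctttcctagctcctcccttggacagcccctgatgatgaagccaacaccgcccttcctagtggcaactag
The window of Psmb8 held 1 GAS match, which began 97 bases before the start, and that of Psme1 held 1 ISRE match just after the start. The windows of Psmb9 and Psmb10 and both windows of Psme2 held neither. A window was found for 42 of the 50 genes, 46 windows in all. Of these, 5 (10.9%) held the ISRE letters, against 3.44% of all 32851 windows of the same length, and 3 (6.52%) held the GAS letters, against 8.30%. The ISRE windows were those of Psmb3, Psmd4, Psmd9, Psme1 and Psmg4, of which Psme1 alone is an interferon-type gene. The letters TGACNNNGC, the core of the antioxidant response element bound by Nfe2l1, stood in 6 windows (13.0%), against 12.4%, and CCAAT, the NF-Y box, in 16 (34.8%), against 37.4%. Matches of different elements may overlap, and a match is a description of the sequence alone.

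Most proteasome genes gave similar signals from hemibrain and reference, and the genes that stood apart were mostly lower in hemibrain. Of the 50 genes, 48 were well above background in both dyes on every array. The median of the gene medians was -0.29, against 0.06 over all 18537 genes with a value on at least 5 arrays, and 34 of the 50 genes (68.0%) had a median within 1 of 0, against 54.4% of all genes. The genes lower in Cy-5 on every array with a value numbered 23 (46.0%), where 33.4% of all genes were so, and those higher on every array 10 (20.0%), where 32.6% of all genes were so. These counts use the brightest probe. Another bright probe of Psmd9, Psmd12 and Psmf1, counted as lower, was not below 0 on every array. Likewise, another bright probe of Psmc4 and Psme3ip1, counted as higher, was not above 0 on every array. Among genes well above background throughout, 23 of 48 (47.9%) were lower, against 38.3%, and 8 of 48 (16.7%) higher, against 38.1%, while 0 of 48 were higher by at least 2-fold on every array, against 18.3%. A difference of at least 2-fold on every array was found for 8 genes in the lower direction (16.0%), close to the 15.6% of all genes, and for 1 gene in the higher direction (2.0%), where 16.5% of all genes were so. The 8 were Psmb8, Psmb9, Psmc3ip, Psmg4, Psmg2, Psme2, Psmd8 and Psma4, and the 1 was Psmb11, a dim gene described below. All counts of genes to either side of 0 are descriptions, with no test over the arrays.

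**Figure D1:**
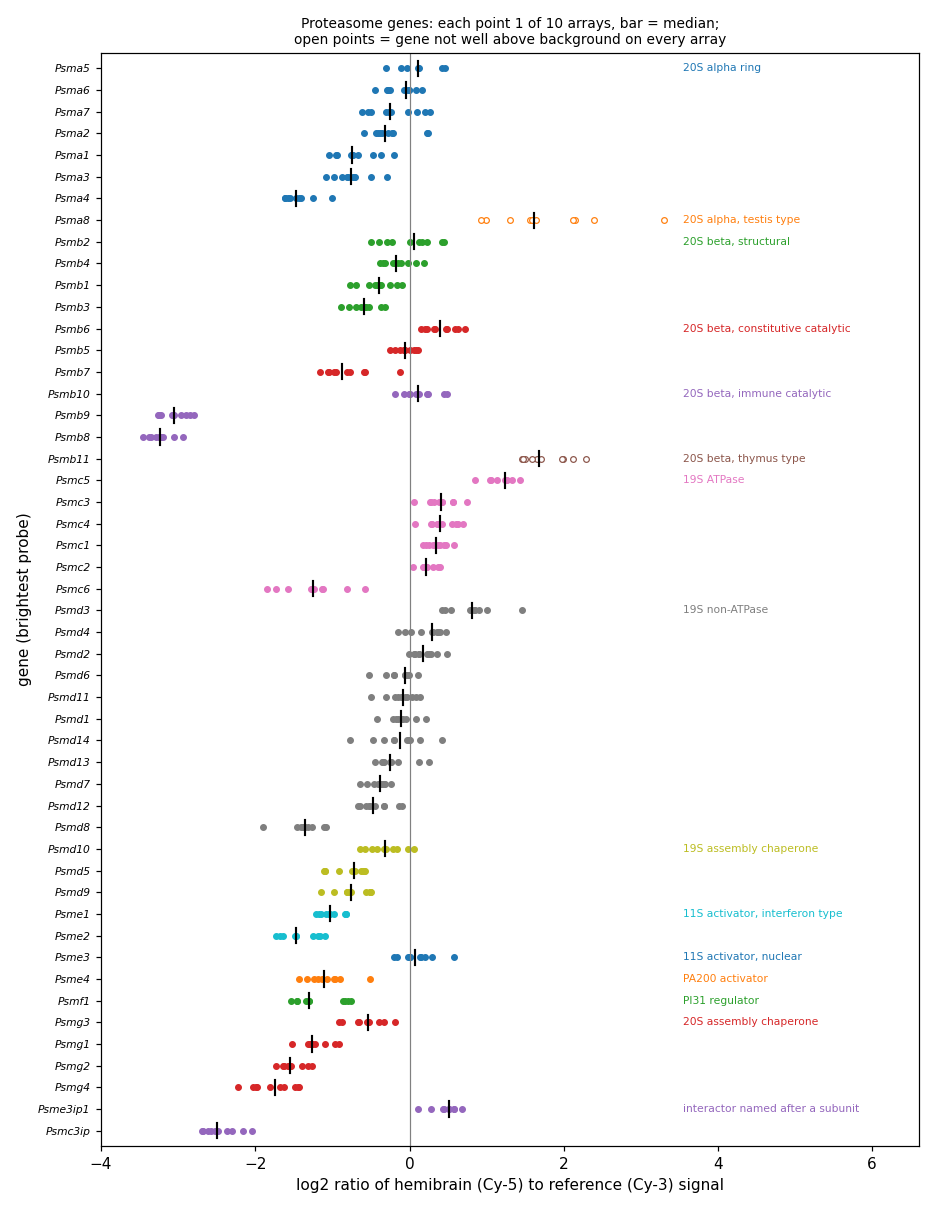
Log2 Cy-5/Cy-3 (horizontal axis) of the 50 genes, grouped by the role of the protein, with a point for each array and a bar at the median. Open points mark the genes that were not well above background in both dyes on every array. Psmb8 and Psmb9 lie to the left of all other genes, and Psmb10 lies near 0, with its median between those of Psmb7 and Psmb6.

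**Figure D2:**
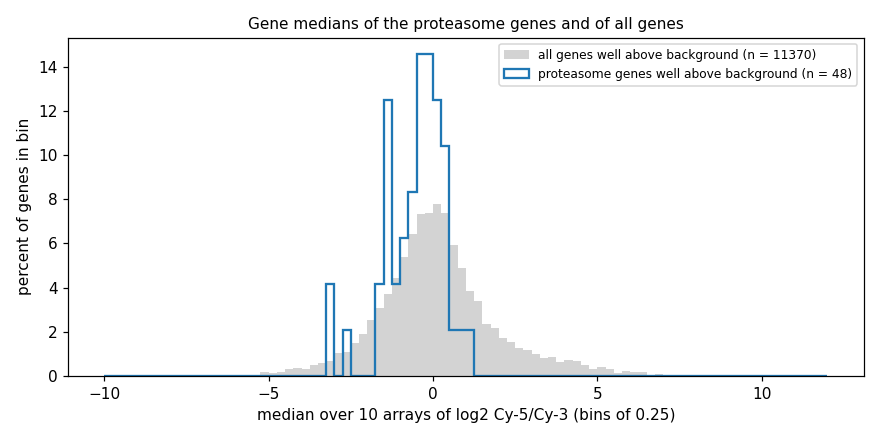
Percent of genes (vertical axis) by median log2 Cy-5/Cy-3 over the arrays, in bins of 0.25, for all 11370 genes well above background in both dyes on every array (grey) and for the 48 proteasome genes among them (blue line). The proteasome genes are gathered near 0, with few genes above 1 and a separate group at the far left.

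Of the 3 immune catalytic subunits, Psmb8 and Psmb9 had the lowest ratios of all 50 genes, whereas Psmb10 was at the level of the reference. Psmb8, the immune counterpart of the chymotrypsin-like subunit Psmb5, had a median of -3.24, from -3.46 on C10-416 to -2.94 on C10-415, which is a 9.42-fold lower signal in hemibrain. A second probe of Psmb8 gave a median of -3.16, whereas Psmb9 and Psmb10 had 1 probe each and could not be checked in this way. Psmb9, the counterpart of the caspase-like subunit Psmb6, had a median of -3.06, from -3.26 on C10-437 to -2.80 on C10-417, or an 8.34-fold lower signal. The ranges of both genes lay below those of all constitutive subunits. Psmb10, the counterpart of the trypsin-like subunit Psmb7, had a median of 0.11, from -0.18 to 0.48, and was above 0 on 7 of the 10 arrays. Its highest values, 0.48 and 0.45, were those of C10-435 and C10-434. All of these genes were well above background in both dyes on every array. The median processed signal of Psmb8 was 2123 in Cy-5 and 19236 in Cy-3, so that its hemibrain signal was low relative to the reference and not lost in the background.

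The constitutive catalytic subunits, with 1 probe each, stayed between -1.16 and 0.72 on all arrays. Psmb5 had a median of -0.07, from -0.25 to 0.11, and crossed 0. Psmb6 was above 0 on every array, with a median of 0.40 and a range from 0.15 to 0.72. Psmb7 was below 0 on every array, with a median of -0.88, a lowest value of -1.16 on C10-434 and a highest of -0.12 on C10-413.

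The immune and constitutive partners were set against each other as differences of their ratios on each array, which compares hemibrain with reference and not the level of a probe with that of another. Psmb8 minus Psmb5 had a median of -3.22, from -3.44 to -2.86, and Psmb9 minus Psmb6 a median of -3.41, from -3.69 to -3.16. Both differences were negative on 10 of 10 arrays, 9.35-fold and 10.7-fold at the median, with an SD over the arrays of 0.21 and 0.16. Psmb10 minus Psmb7 went the other way, with a median of 1.16, or 2.24-fold, and was positive on 9 of 10 arrays. This difference rests on a single probe of each gene, and an effect of the probe was not tested. It ran from -0.06 on C10-413, the array on which Psmb7 was highest, to 1.60 on C10-434. Because the diets of the arrays are open, these differences carry no test.

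**Figure D3:**
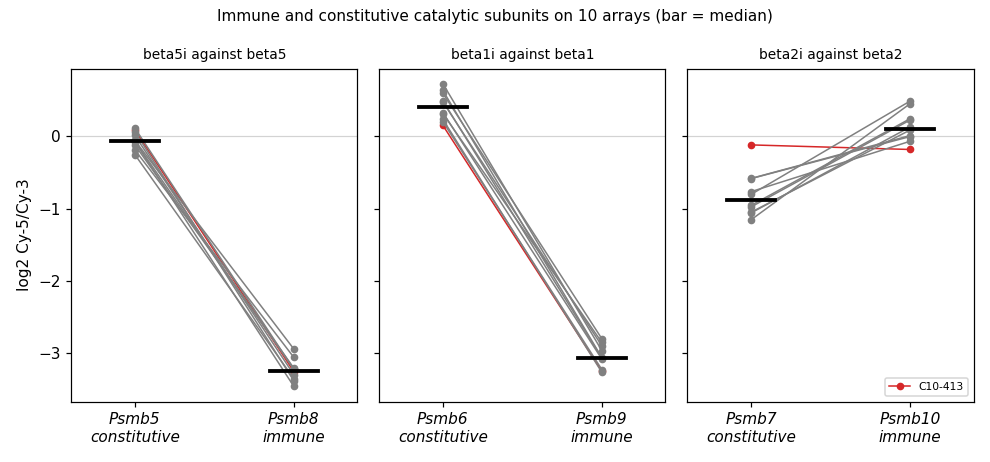
Log2 Cy-5/Cy-3 (vertical axis) of each constitutive catalytic subunit and its immune counterpart, joined by a line for each of the 10 arrays, with a bar at the median and C10-413 in red. The lines fall by about 3 for Psmb8 and Psmb9 on every array and rise for Psmb10 on all arrays but C10-413.

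Both subunits of the interferon-induced 11S activator were lower in hemibrain, and so was the activator Psme4, which is not of that type. Psme1, the alpha subunit of the activator that interferon induces, was below 0 on every array, with a median of -1.03 and a range from -1.21 to -0.82. Psme2, its beta subunit, had a median of -1.47, from -1.73 to -1.10, and a second probe gave -1.55. Psme3, which forms the nuclear 11S activator and is not an interferon target, had a median of 0.07, from -0.20 to 0.57. Psme1 minus Psme3 had a median of -1.15 and Psme2 minus Psme3 of -1.49, and both were negative on 10 of 10 arrays. Psme4, the PA200 activator, had a median of -1.10 from -1.43 to -0.52, within the span of the medians of Psme1 and Psme2.

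Psmb9 and Psmb8 lie in the MHC class II region of chromosome 17, where the protein-coding genes run Psmb9, Tap1, Psmb8, Tap2 in the order of the name table, and Psme1 and Psme2 lie on chromosome 14 with Emc9 between them and Irf9 nearby. Psmb10 lies on chromosome 8, outside these clusters. Tap1, which pumps peptides into the endoplasmic reticulum, had a median of -3.24, with a Cy-5 signal well above background on 7 arrays. Tap2, its partner, had a median of -1.76, and Irf9, an interferon-responsive factor, of -1.05. In a list of 16 genes of antigen processing and the interferon response, 15 were matched, with a list median over the arrays of -1.71. Of these 15, 14 were lower in Cy-5 on every array, where 33.4% of all genes were so. The exception was Stat2, which ranged from -1.12 to 0.24. B2m, the light chain of MHC class I, was lowest at -3.72, and Irf8 was nearest to 0 at -0.35. None of these genes was higher on every array.

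**Figure D4:**
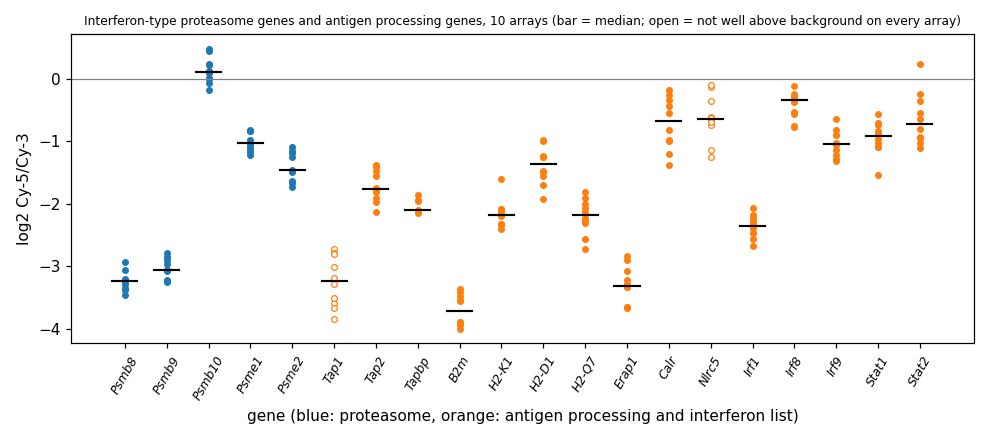
Log2 Cy-5/Cy-3 (vertical axis) on each of 10 arrays for the interferon-type proteasome genes (blue) and the antigen processing and interferon genes (orange), with a bar at the median and open points for genes not well above background on every array. Psmb8 and Psmb9 lie with Tap1, B2m and Erap1 between -2.72 and -4.01, and the median of Psmb10 lies above that of every orange gene.

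Many lymphoid and macrophage genes, though not all, were lower in hemibrain, as Psmb8 and Psmb9 were. The median of 8 lymphoid genes lay between -2.21 and -1.58 over the arrays, with 4 of the 8 genes lower on every array and 0 higher. For this and the next lists, 33.4% of all genes were lower and 32.6% higher on every array. The 1 lymphoid gene well above background in both dyes throughout was Cd3e. It lay near the level of the reference, with a median of -0.15 from -0.48 to 0.33. Ptprc, which marks leukocytes, stood at -5.89, with a Cy-5 signal well above background on 9 arrays. The median of the 5 matched macrophage genes of 7 lay between -3.62 and -2.0, with 4 of the 5 genes lower on every array, among them Cd14 at -4.64, and 1 higher, Itgam, which microglia also express, at 2.24 from 1.58 to 2.55. Microglial genes ran the other way, with a list median between 1.13 and 1.66 and 6 of 7 genes higher on every array. The part of these cells in the ratios of the immune subunits was not tested.

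Among the other standard subunits of the core particle, none was above 0 on every array. Of the 7 alpha ring genes, which form the gate of the core, Psma1, Psma3 and Psma4 were below 0 on every array and the other 4 crossed 0. Psma4 was lowest, at a median of -1.48 for both of its probes, and Psma5 was highest, at 0.11, on the 7 arrays where its spot carried no outlier flag. The list median of the alpha ring was -0.41. Of the structural beta subunits, Psmb1 (median -0.40) and Psmb3 (-0.59) were lower on every array, and Psmb2 (0.06) and Psmb4 (-0.17) crossed 0.

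The ATPases of the 19S particle included the highest and one of the lower ratios among the standard subunits, although their proteins form 1 ring. By their brightest probes, Psmc1, Psmc2, Psmc3, Psmc4 and Psmc5 were above 0 on every array with a value, and the first 4 had medians between 0.22 and 0.40. Psmc5 had a median of 1.23 on 9 arrays, from 0.85 to 1.43, and its second probe gave 1.77. Psmc6 was below 0 on every array, with a median of -1.25 and a range from -1.84 to -0.58 that did not overlap with that of any other ATPase. The list median was 0.35.

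Of 11 non-ATPase subunits, Psmd3, a scaffold of the lid, was the 1 gene above 0 on every array, with a median of 0.82, a lowest value of 0.42 on C10-437 and a highest of 1.46 on C10-434. Psmd7, Psmd8 and Psmd12 were below 0 on every array by their brightest probes. Another probe of Psmd12 was above 0 on every array, with a median of 0.44. Psmd8, a subunit of the lid, had a median of -1.36 from -1.90 to -1.08. The ubiquitin receptors Psmd2 (0.17) and Psmd4 (0.30) and the deubiquitinase Psmd14 (-0.12) crossed 0, as did Psmd1 (-0.11), Psmd6 (-0.06), Psmd11 (-0.09) and Psmd13 (-0.25). The list median of the 11 genes was -0.15 and that of all 31 standard subunits of the core and the 19S particle was -0.11.

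The genes for assembly factors were mostly lower in hemibrain. All 4 chaperones that build the alpha ring, Psmg1 to Psmg4, were below 0 on every array, with medians of -1.27, -1.55, -0.54 and -1.75. The chaperones of the 19S base Psmd5 and Psmd9 were also below 0 on every array by their brightest probes, at -0.73 and -0.76. Psmd10, the oncoprotein gankyrin, was below 0 on 9 of 10 arrays with a median of -0.32. Pomp, which ushers beta subunits onto the ring, went the other way, with a median of 0.77 from 0.22 to 0.84. Psmf1, a regulator of the core known as PI31, gave -1.30 by its brightest probe and 0.04 by another probe well above background throughout. Psmc3ip had a median of -2.50, from -2.69 to -2.04, the lowest of the 50 genes after Psmb8 and Psmb9, while Psme3ip1 stood at 0.51 from 0.10 to 0.69.

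Psma8, the alpha subunit of the testis proteasome, and Psmb11, the beta subunit of the thymus proteasome, were dim. The signal of Psma8 exceeded background clearly on 8 arrays for Cy-5 and on 6 for Cy-3, with a median processed signal of 192 in Cy-5, and its ratio ran from 0.93 to 3.29, the widest range of the 50 genes. One probe of Psmb11 was above background on 9 arrays in each dye and gave a median of 1.68, whereas the other was well above background on 0 arrays in either dye. The ratios of both genes are those of signals near background.

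Among the other genes of the pathway, the lists ran close to 0. Of 12 matched partners of the proteasome, 4 were higher and 3 lower on every array, with a list median of -0.09. The shares over all genes were 32.6% higher and 33.4% lower. Nfe2l1, a transcription factor that drives proteasome genes, had a median of 1.43 from 1.09 to 2.06, and its relative Nfe2l2 one of -2.64 from -2.95 to -2.40. Of 14 genes for ubiquitin, its activating enzymes and shuttle factors, 3 were higher and 5 lower on every array, with a list median of -0.15. The polyubiquitin gene Ubb was higher in hemibrain, with a median of 1.69, and the activating enzyme Uba6 was lower, at -2.27.

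Probes of the same gene mostly gave similar ratios. Of the 17 genes with more than 1 probe, 16 had at least 2 probes well above background in both dyes on every array, and the medians of such probes differed by 0.16 at the median gene. For 4 of them the difference was over 0.5. The 3 probes of Psmd12 gave medians of -0.82, -0.48 and 0.44, so that its direction depends on the probe. Psmf1 gave -1.30 and 0.04 from both of its probes that were well above background throughout, Psmg2 gave -1.55 and -0.92, and Psmc5 1.23 and 1.77. Further probes that were not well above background on every array stood apart for Psme4, at -3.82, Psme3ip1, at -0.74, and Psmb11, at 0.12. The name table lists 6 pseudogenes of these genes, and binding of the probes to their transcripts was not tested.

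**Figure D5:**
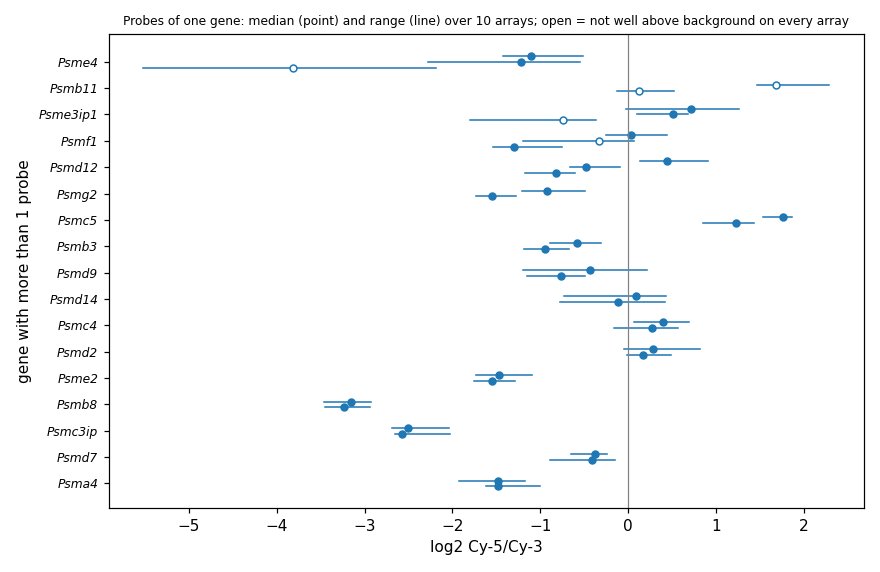
Median (point) and range over the arrays (line) of log2 Cy-5/Cy-3 for each probe of the 17 genes with more than 1 probe, with open points for probes not well above background on every array. The probes of Psmb8 and Psme2 lie on top of each other, while those of Psmf1 and Psmd12 fall on either side of 0.

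The spread between arrays differed from gene to gene, from a range of 0.35 for Psmc2 to 1.26 for Psmc6 among the genes well above background. The range of a gene over the arrays had a median of 0.64 among the 48 genes well above background, against 0.78 among all 11370 such genes, a difference that was not tested, and the median of all 50 genes lay between -0.47 and -0.09. Since slides are the batches that the files name, the 4 arrays of a slide were set against the 4 arrays of another with limma, over 41042 probes. With Benjamini-Hochberg adjustment, 31 probes (0.0755%) had a limma p under 0.05, and 0 of the 70 proteasome probes tested were among them, the smallest adjusted p being 0.139. At an unadjusted p under 0.05, 2 of the 70 differed, against 9.92% of all probes. They were the probe of Psma8, with a log2 difference of -1.29 (second slide minus first, SE 0.29), and the dim probe of Psme3ip1, with 0.72 (SE 0.24). Each slide carried other animals of unknown diet, so slide, animal and diet cannot be told apart.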

How the data were processed

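The authors scanned each array and deposited the output of Feature Extraction (version 10.10.1.1 in the file headers). They deposited linear intensities, of which the processed columns are background-subtracted and dye-normalized, with log10 ratios (not used beyond a check) and flags of 0 or 1, which are other values without unit. The authors also deposited a table of log2 ratios per probe, which equals log2 of the processed Cy-5 over Cy-3 signal. Precision is limited by how many arrays there are and by how bright a probe is. The methods also name LOWESS within arrays.

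Control spots and outlier-flagged spots were left out, spots of a probe were averaged, and log2 Cy-5/Cy-3 was taken from the processed signals without further normalization. A probe was well above background where the flag was set for at least 0.5 of its spots. Probes were named by RefSeq accession (assembly GRCm38.p6, names alone), which matched 27198 of 41174 probes (66.1%). Tools were Python 3.11.15, R 4.3.3 and limma 3.58.1, and the slide comparison was tested on simulated data. Alternatives were loess (span 0.3), median centring, normexp (offset 50), and subtraction with a floor of 0.5 and the same offset. Loess also followed normexp and the floor, so shifts under these settings include it. Further alternatives were the authors' table, all probes of a gene, bright values alone, each slide of 4 arrays alone, the median of slide medians, and C10-434 left out. Arrays were left out in turn for the slide comparison alone. The members and lists were chosen with earlier results of these data known. Values on the arrays are given for the catalytic beta subunits, Psme1, Psme2, Psme3, and the 3 highest and 3 lowest genes well above background. The other genes named are members, genes of the lists or chromosomal neighbours.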

Additional observations from a re-analysis of the deposited data

Results flagged for a closer look

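Dixon's gap test at the 95% level was applied over the arrays to 58 measures, which were the ratios of the 50 genes, the 5 list medians and the 3 differences between partners. In 1 of them an array lay apart by more than the critical gap, where chance alone sets apart about 1 in 20, or 2.90 measures. That was Psmd8, which stood at -1.90 on C10-434, against -1.46 to -1.08 on the other 9 arrays. C10-434 is the array with the weakest Cy-5 signal, and the part of that signal in this value was not tested.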

How the results depend on the processing

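The differences between immune and constitutive partners kept their direction in all alternatives run on them, in which C10-434 was the only single array left out. Psmb8 minus Psmb5 moved to -2.73 under normexp and -2.99 on the first slide of 4 arrays alone, and Psmb9 minus Psmb6 to -2.95 under normexp and -3.11 with the floor. The median of the immune catalytic subunits moved from -3.06 to -2.85 after loess, -2.42 under normexp and -2.65 with the floor, that of the constitutive ones from -0.07 to 0.086 with the floor. The median of the 19S non-ATPase genes lay near 0 throughout, at -0.15, -0.025 after loess and 0.0081, with its sign turned, with the floor. The normexp fit was implausible on C10-413, with a fitted Cy-5 background of -2836. The counts of genes lower or higher on every array stayed between 21 and 26 and between 8 and 11, and were 23 and 10 without C10-434, an alternative chosen after the data were examined, as were the other alternatives for these counts. Of 143 values for 13 named genes, 132 moved by less than the SD over the arrays, and 5 changed sign, 4 of them of Psmb5 and 1 of Psme3, whose main medians lie within 0.1 of 0. Between the slides, 0 proteasome probes passed limma's adjusted p in every setting, from 0 to 0 with an array left out. At an unadjusted p under 0.05 there were 2, but 6 under normexp, 8 with the floor, 0 among probes well above background, 3 without C10-434 and 2 without any other array. The 31 probes of the whole array became 0 under normexp and with the floor and from 0 to 18 with an array left out. No paired analysis was possible because the labels put the arrays in no groups with shared replicate numbers.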

Other observations

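Several list medians of the core and the cap had an extreme on C10-413 or C10-423, in differing directions. The alpha ring list was highest on C10-435 (0.17) and C10-423 (0.09), the 2 arrays where its median was above 0, and lowest on C10-413 (-0.62). The ATPase list was lowest on C10-423 (0.14) and highest on C10-413 (0.63). The structural beta subunits were nearest to 0 on the same arrays as the alpha ring, at 0.02 on C10-423 and -0.01 on C10-435, whereas the constitutive catalytic list was lowest on C10-423 (-0.25) and stood at 0.09 on C10-413. The 19S non-ATPase list was highest on C10-413 (-0.01), and stood at -0.03 on C10-435. These values share a reference, no relation between them was tested, and the arrays were singled out after their values were seen.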
